A study of Mus musculus with 14 samples.

Results

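The 33 genes described here carry out or control the synthesis, uptake and efflux of cholesterol. They were chosen by name, for their known roles, among the 21205 genes counted in single type 1 conventional dendritic cells (cDC1) sorted from mouse melanomas. All 33 were in the count table. A synthesis and uptake set holds 27 of them: 7 of the mevalonate arm, 11 of the sterol arm that turns squalene into cholesterol, 5 of the sterol sensors and the SREBP machinery, and 4 of cholesterol trafficking and esterification. An efflux set holds the other 6: the liver X receptors Nr1h3 and Nr1h2, and the genes Abca1, Abcg1, Apoe and Mylip, which these receptors are known to induce.

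Cells keep the cholesterol of their membranes within narrow limits through a pair of opposing transcription programmes. When sterols in the endoplasmic reticulum fall, SCAP escorts the membrane-bound factor SREBP2 (encoded by Srebf2) to the Golgi, where proteases release it to switch on the genes of synthesis and uptake; the INSIG proteins hold SCAP back when sterols are plentiful. When oxidised sterols build up, liver X receptors switch on the export of cholesterol through the transporters ABCA1 and ABCG1 to carriers such as apolipoprotein E. In dendritic cells and macrophages, cholesterol also enters with engulfed cells and leaves the lysosome through the paired proteins NPC2 and NPC1.

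The cells came from YUMM1.7 tumours, a mouse melanoma cell line grown under the skin of female mice, and were sorted into 96-well plates. Each plate is labelled as a tumour of a female mouse; nothing says which plates came from separate mice, so the spread between plates may be in part technical. The 14 plates held 555 cells in 4 genotypes. The Irf1_FF group (Irf1 control) had 4 plates and 165 cells, and the Irf1_dXCR1 group (Irf1-deleted) had 5 plates and 223 cells, all at 6 weeks of age. The Ikbkb_FF group (Ikbkb control) had 1 plate and 34 cells at 8 weeks. The Ikbkb_dXCR1 group (Ikbkb-deleted) had 4 plates and 133 cells, 2 plates at 8 weeks and 2 at 6 weeks. IRF1 is a transcription factor of interferon responses and Ikbkb encodes the kinase IKKβ of the NF-κB pathway. The suffix FF is read here as an undeleted floxed allele, and dXCR1 as deletion in cells that express XCR1, the chemokine receptor that marks cDC1; cells that never expressed it keep the gene. The Irf1 and Ikbkb lines belong to separate experiments, so line and experiment cannot be told apart. The lines were not compared, except that 1 alternative set the Ikbkb-deleted plates against all 5 control plates together.

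The number of cells in a plate ran from 18 to 59. Summed per plate, unique molecular identifiers (UMIs, tags that mark each captured transcript) ran from 2810321 to 10120557, with a median of 143476 UMIs per cell. The targeted genes gave 5′ counts in every genotype: Irf1 ranged from 203 to 448 CPM (counts per 1000000 UMIs) in its control plates and from 92.5 to 344 CPM in its deleted plates, and Ikbkb stood at 300.1 CPM in its control plate and at 133 to 291 CPM in its deleted plates. These values, sums of markers and means over cells are unscaled, while the plate values of single genes below are in CPM after edgeR's TMM scaling. The deleted stretch of either gene is not given in the sources used here, so these counts check neither label. All 8 listed markers of immature cDC1 were present in every genotype, and their summed level lay between 2583 and 5659 CPM per plate. Cells that held UMIs of 2 or more macrophage markers numbered 88. Cells with 2 or more markers of macrophages, of fibroblasts or endothelium, or of T or NK cells numbered 195 of the 555. Their number in a plate ran from 2 of 18 cells (Ikbkb_dXCR1 replicate 1) to 33 of 43 (Irf1_FF replicate 1).

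Cells were placed in 3 classes by the genes of the chemokine receptors CCR7, which mature dendritic cells switch on, and XCR1. The 170 Ccr7+ cells held at least 1 Ccr7 UMI, the 149 Xcr1+ Ccr7- cells held an Xcr1 UMI and none of Ccr7, and 236 cells held neither. Of the Ccr7+ cells, 27 also held an Xcr1 UMI. Of the 8 markers of mature dendritic cells tested, 7 were called higher in Ccr7+ than in Xcr1+ Ccr7- cells and none lower; of 7 tested markers of immature cDC1, 2 were called lower and none higher. Median depth was 132930.5 UMIs in Ccr7+ cells, 187354 in Xcr1+ Ccr7- cells and 112332 in the rest, so shares of cells are compared between the classes after thinning to 50000 UMIs, which left out the 102 shallower cells and kept 135 Ccr7+, 137 Xcr1+ Ccr7- and 181 other cells. Shares over all 555 cells are unthinned.

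The SREBP2 programme acts through short sterol response elements near gene starts. The 250 bases before each annotated start were searched on both strands for the classical element TCACNCCAC. RefSeq starts on GRCm38.p6 matched 27 of the 33 genes, with 38 windows. The element lay in the window of Hmgcs1, which encodes the cytosolic synthase that makes the precursor of mevalonate, and in no window of the other 26. It was held by 1.05% of all 32851 windows and by 1.22% of all 27025 genes with a window. In Hmgcs1 it stood 137 bases before the start, at chr13:119690202-119690234 on the plus strand, with the match in capitals.
Hmgcs1: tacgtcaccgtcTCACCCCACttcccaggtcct
The liver X receptor element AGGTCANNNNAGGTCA was in no window of the matched genes, against 0.0152% of all windows, and the lysosomal-gene element TCACGTGA in none, against 0.785%. A match or its lack describes the letters of these windows only.

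Most of these genes were sparse in single cells. Over all 555 cells without thinning, 19 members had a UMI in under 10% of cells, 12 in 10 to 25%, and 2 in more. The exceptions were Npc2, in 87.4% of cells, and Nr1h2, in 33.5%. Npc2 encodes the soluble lysosomal protein that binds cholesterol and hands it to NPC1. Its mean of 2294 CPM placed it 26th among the 21205 genes, and the next member, Apoe, was 696th. Npc1, its membrane partner, had a mean of 15.5 CPM and a UMI in 4.32% of cells. A cell with any UMI of a member held 10.6 to 372 of them on average, with a median over members of 73.3, so the sum of a plate could rest on a few positive cells.

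Among the mevalonate genes, Pmvk, which encodes phosphomevalonate kinase, was the most abundant at 185 CPM over cells, followed by the isomerase gene Idi1 at 58.0 CPM. The first gene of the list, Hmgcs1, stood at 34.0 CPM, and Mvd, Mvk, Acat2 and Fdps, which encode mevalonate diphosphate decarboxylase, mevalonate kinase, the cytosolic thiolase and farnesyl diphosphate synthase, at 36.0, 22.1, 11.3 and 9.76 CPM. In the sterol arm, Ebp, the sterol isomerase, led with 151 CPM and a UMI in 21.1% of all 555 cells, unthinned. Msmo1, a C4-demethylase, Fdft1, squalene synthase, Cyp51, the lanosterol 14-demethylase, Sc5d, Sqle, the squalene epoxidase, and Nsdhl followed between 33 and 71.8 CPM. Lss, Tm7sf2, Hsd17b7 and Dhcr7 lay between 7.42 and 14.0 CPM, with a UMI in at most 2.70% of cells. Pmvk and Ebp were each seen in more than 1 in 5 cells.

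Over all 555 cells, unthinned, the control gene Srebf2 was read in 19.3% of cells, Srebf1, whose product favours fatty acid genes, in 9.55%, Insig2 in 9.55%, Scap in 8.11% and Insig1 in 2.16%. Soat1, which esterifies cholesterol for storage in droplets, had a UMI in 23.4% of cells and Stard4, a soluble sterol carrier, in 4.86%. The liver X receptor genes differed in abundance, at 119 CPM for Nr1h2 (LXRβ) and 42.8 CPM for Nr1h3 (LXRα). Each 5′ count is meant to stand for 1 transcript end, so levels of different genes are not scaled by length. Whether each count was a separate transcript was not tested. The highest count of a gene in a cell was 1024, the number of forms of a UMI of 5 bases.

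Within the efflux set, Apoe, Nr1h3 and Abca1 were most abundant in the cells that held neither Ccr7 nor Xcr1. Apoe averaged 513 CPM there, 163 CPM in Ccr7+ cells and 55.2 CPM in Xcr1+ Ccr7- cells. Nr1h3 averaged 88.8, 9.24 and 8.21 CPM, and Abca1, the transporter that loads cholesterol on apolipoproteins, 31.3, 0.534 and 3.71 CPM in the same order. These 3 genes also stood high in the 88 cells with macrophage markers, of which 59 were in that class. In those 88 cells Apoe averaged 1402 CPM, against 72.0 CPM in the other 467, Nr1h3 247 against 4.37 CPM, and Abca1 55.9 against 6.65 CPM. Soat1 stood at 235 against 89.2 CPM, whereas Nr1h2, Abcg1 and Npc2 differed by less, with 129 against 117, 68.0 against 66.4 and 2442 against 2266 CPM. These are means over cells of several plates and were not tested.

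The plot of the share of cells sets the classes side by side, among cells thinned to 50000 UMIs. Among the sensors, Srebf2 was read in 32.8% of Xcr1+ Ccr7- cells and 17.0% of Ccr7+ cells, and Insig2 in 16.1% and 1.48%. Cyp51 was read in 20.4% and 8.89%, and Ebp in 27.7% and 15.6%, of the same thinned cells. Idi1 stood the other way, in 14.6% of thinned Xcr1+ Ccr7- cells and 33.3% of thinned Ccr7+ cells. Over all cells of the classes, without thinning, the shares were 34.9% and 16.5% for Srebf2. Shares pool cells of several plates and carry no test; the test over plates follows.

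**Figure D1:**
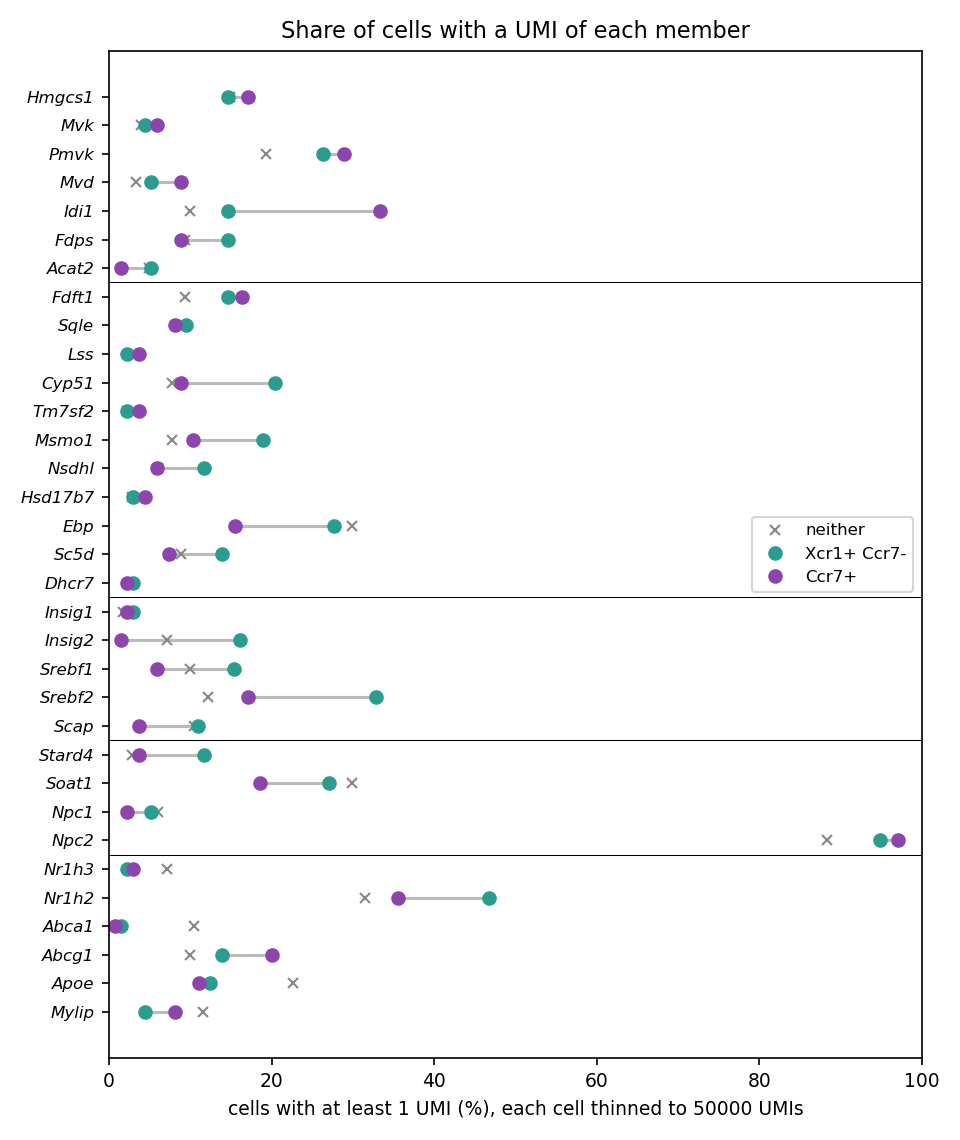
Share of cells with at least 1 UMI (%, x axis) of each of the 33 genes (y axis, in role groups parted by lines: mevalonate arm, sterol arm, sensors, trafficking, liver X receptors and efflux), over the 137 Xcr1+ Ccr7-, 135 Ccr7+ and 181 other cells with at least 50000 UMIs, each thinned to that number; circles are Xcr1+ Ccr7- and Ccr7+ cells and crosses the cells with neither. Npc2 is read in 94.9% and 97.0% of the 2 classes, Srebf2 in 32.8% and 17.0%, and Apoe, Nr1h3 and Abca1 most often in the cells with neither.

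The difference between the classes was tested over the 11 plates, of all genotypes, that had at least 5 cells of each (4 Irf1 control, 3 Irf1-deleted, 1 Ikbkb control and 3 Ikbkb-deleted), with the plate as a block. Of the 33 members, 21 passed the filter on low counts. Npc2 was called higher in Ccr7+ cells, and no other member was called in either direction (1 of 21; of all 5559 genes tested, 2.86% were called higher, 1.03% lower and 3.89% in all). That share of members is near the share of all genes called.

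Npc2 (chr12:84754562-84773152, GRCm38, minus strand) had a lowest, median and highest plate value of 963, 1678 and 2479 CPM in Xcr1+ Ccr7- cells. In Ccr7+ cells of the same plates these were 1469, 3139 and 6387 CPM. It was higher in Ccr7+ cells in 11 of 11 plates, although the ranges of the classes overlapped. The means were 1685 ± 459 CPM and 3224 ± 1238 CPM (SD, n = 11 plates). The fitted difference was 0.90 ± 0.12 on the log2 scale (SE; edgeR quasi-likelihood test, adjusted p = 4.61e-04). It went from 1555 to 2879 CPM in the Ikbkb control plate; the Irf1 control plates went from 1960.5, 1276, 1678 and 2319.6 CPM to 2474, 3139, 3197 and 6387 CPM in the same order of plates. Cells with neither receptor gene averaged 2057 CPM over cells, between the averages of 1681 and 3161 CPM of the 2 classes. CPM is a share of the UMIs of a cell, and median depth was 132930.5 UMIs in Ccr7+ and 187354 in Xcr1+ Ccr7- cells. Without scaling to depth, Npc2 averaged 386 UMIs per cell in Ccr7+ and 338 in Xcr1+ Ccr7- cells. The call is therefore of a relative level, and the part of depth in it was not tested.

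**Figure D2:**
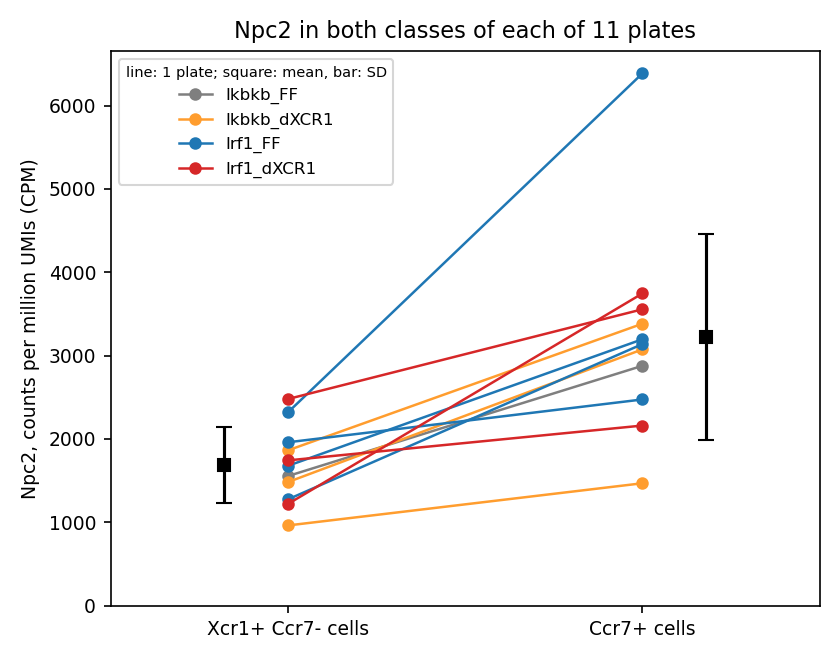
Npc2 level (CPM, y axis from 0) in Xcr1+ Ccr7- and Ccr7+ cells (x axis) of 11 plates; each line joins the classes of 1 plate, coloured by genotype, and squares with bars are the mean and SD. All 11 lines go up, from a mean of 1685 to a mean of 3224 CPM, and 1 Irf1 control plate has the highest value.

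The call of Npc2 was lost with at least 10 cells per plate and class, which left 4 plates (log2 fold change 0.77 ± 0.19, SE; adjusted p = 0.181), and with the 5 control plates alone (0.97 ± 0.18; adjusted p = 0.0781), both with fewer plates in the edgeR test. Cycling markers, summed over 6 genes, had a median of 438 CPM in Ccr7+ and 932 CPM in Xcr1+ Ccr7- cells. Without the cells that held 2 or more of them the Npc2 log2 fold change was 0.78 ± 0.16 (SE; edgeR, adjusted p = 0.0233). Macrophage markers, summed over 7 genes, ranged from 0 to 1576 CPM (median 142) in Ccr7+ and from 1.58 to 2043 CPM (median 130.1) in Xcr1+ Ccr7- cells; none of the 7 was at 0 in either class. Without cells that held macrophage, fibroblast, endothelial, T or NK cell markers, Npc2 differed by 1.05 ± 0.13 on the log2 scale (SE; edgeR, adjusted p = 4.83e-04). A UMI of 5 bases has 1024 forms, and 144 cells held over 500 Npc2 UMIs, which can understate high counts; with counts corrected for shared UMIs the log2 fold change was 0.96 ± 0.15 (SE; edgeR, adjusted p = 0.00156).

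The other trafficking genes had lower point values in Ccr7+ cells and did not pass. Soat1 had a lowest, median and highest value of 0, 158 and 279 CPM in Xcr1+ Ccr7- cells and 0, 40.2 and 308 CPM in Ccr7+ cells, with overlapping ranges (edgeR, adjusted p = 0.813). Stard4 had means of 60.9 ± 61.9 CPM and 31.4 ± 54.8 CPM (SD, n = 11; edgeR, adjusted p = 0.562; DESeq2, adjusted p = 0.00831). DESeq2 called 1243 of all 5559 genes tested in this comparison. Npc1 was too low to be tested.

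All 3 tested sensor genes had lower point values in Ccr7+ cells, and none passed. Srebf2 (chr15:82147181-82205379, plus strand) gave 0, 84.2 and 253 CPM as lowest, median and highest in Xcr1+ Ccr7- cells and 0, 7.54 and 98.7 CPM in Ccr7+ cells. It was lower in Ccr7+ cells in 9 plates, higher in 1 and at 0 in both classes of 1. Its means were 105 ± 86.1 CPM and 41.1 ± 44.1 CPM (SD, n = 11 plates; log2 fold change -2.60 ± 1.22, SE; edgeR, adjusted p = 0.362). Other tools passed it: DESeq2 gave an adjusted p of 0.0163, and limma on cells weighted equally 0.00651. Those tools also called 1243 and 1887 of all 5559 genes tested, against 216 by edgeR. Srebf1 gave 0, 35.8 and 177 CPM and 0, 11.6 and 82.1 CPM, lower in 9 plates and higher in none (edgeR, adjusted p = 0.509). Scap had means of 33.4 ± 40.4 CPM and 20.5 ± 27.1 CPM (SD, n = 11; edgeR, adjusted p = 0.747), and Insig1 and Insig2 did not pass the filter.

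The fitted differences of the arms of synthesis lay mostly on opposite sides of 0, again with no call, and several genes were split nearly evenly over the plates. All 4 tested mevalonate genes pointed higher in Ccr7+ cells, where to point higher means only that the fitted difference was above 0. Pmvk had a lowest, median and highest value of 0, 128 and 264 CPM in Xcr1+ Ccr7- and 149, 297 and 1111 CPM in Ccr7+ cells, and stood higher in Ccr7+ cells in 9 of 11 plates (log2 fold change 1.46 ± 0.75, SE; edgeR, adjusted p = 0.428). Idi1 gave 0, 18.2 and 201 CPM and 0, 146 and 271 CPM, higher in 8 plates, lower in 1 and at 0 in both classes of 2 (edgeR, adjusted p = 0.663). Hmgcs1 and Fdps had differences of 0.77 and 0.29 on the log2 scale, each smaller than its SE. Hmgcs1 was higher in Ccr7+ cells in 6 plates and lower in 5, and Fdps higher in 4 and lower in 4.

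Of the 7 tested genes of the sterol arm, 6 pointed lower in Ccr7+ cells and Sqle higher. Ebp, with 0, 171 and 247 CPM in Xcr1+ Ccr7- and 0, 134 and 349.8 CPM in Ccr7+ cells, was lower in 8 of 11 plates, with overlapping ranges (edgeR, adjusted p = 0.888). Msmo1 gave 0, 92.1 and 285 CPM and 0, 39.2 and 286 CPM (edgeR, adjusted p = 0.861). Cyp51 had means of 90.8 ± 67.3 CPM and 55.1 ± 85.4 CPM and Nsdhl, a C4-decarboxylating dehydrogenase, of 53.0 ± 44.2 CPM and 23.7 ± 36.5 CPM (SD, n = 11). Cyp51 missed the threshold in edgeR (adjusted p = 0.576) and passed it in DESeq2 (adjusted p = 0.00254), which called 1243 of all 5559 genes tested. Sc5d, the sterol C5-desaturase, and Fdft1 differed by less than their SE. Cyp51 was lower in Ccr7+ cells in 7 plates and higher in 4, and Nsdhl lower in 7 and higher in 1. Msmo1 and Sc5d were each higher in 5 and lower in 5, and Fdft1 and Sqle each higher in 5 and lower in 4. Plate means went against the fitted sign for Fdft1, from 62.3 to 116 CPM in Ccr7+ cells, and for Sqle, from 50.6 to 46.5 CPM. Over the 17 tested members of the synthesis and uptake set, 6 pointed higher and 11 lower, with a median log2 fold change of -1.13, beside -0.32 over all genes tested; that median ran from -1.75 to -0.58 over the plates left out in turn (without Irf1_FF replicate 2 and Irf1_FF replicate 3), and was -0.75 without the Ikbkb control plate and -0.64 without Irf1_FF replicate 1. It was 0.17 with at least 10 cells per plate and class, -0.22 in the plates of the Irf1 lines, -0.51 with cells weighted equally, -0.37 with no plate block, -0.70 without cells holding both Ccr7 and Xcr1 and -0.61 with no filter on low counts.

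The 4 tested efflux genes all pointed higher in Ccr7+ cells, with a median log2 fold change of 1.96 and no call. That median was 0.98 without Irf1_FF replicate 2 and in the plates of the Irf1 lines, 0.73 with cells thinned, 0.56 without cycling cells, 0.33 with at least 10 cells per plate and class, 0.19 with cells weighted equally, 1.00 with no plate block and 1.08 with no filter on low counts. Nr1h2 (chr7:44549616-44553951, minus strand) had lowest, median and highest values of 12.6, 146 and 183 CPM in Xcr1+ Ccr7- and 55.7, 140.1 and 561 CPM in Ccr7+ cells and was higher in 6 of 11 plates (edgeR, adjusted p = 0.728). Apoe gave 0, 17.7 and 292 CPM and 0, 102 and 445 CPM, also higher in 6 plates (edgeR, adjusted p = 0.809). Abcg1, which exports cholesterol to lipoproteins, and Mylip, whose ubiquitin ligase removes lipoprotein receptors, had means of 39.7 ± 44.1 CPM and 17.0 ± 28.3 CPM in Xcr1+ Ccr7- cells and 73.9 ± 43.5 CPM and 37.5 ± 53.4 CPM in Ccr7+ cells (SD, n = 11). When each cell counted equally, the mean log2(CPM + 1) over the 6 efflux genes differed between the classes by 0.05 ± 0.37 (SD, n = 11 plates; higher in Ccr7+ cells in 6), and that over the 27 synthesis and uptake genes by -0.25 ± 0.55 (higher in 3). Both differences lay within the spread between plates.

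**Figure D3:**
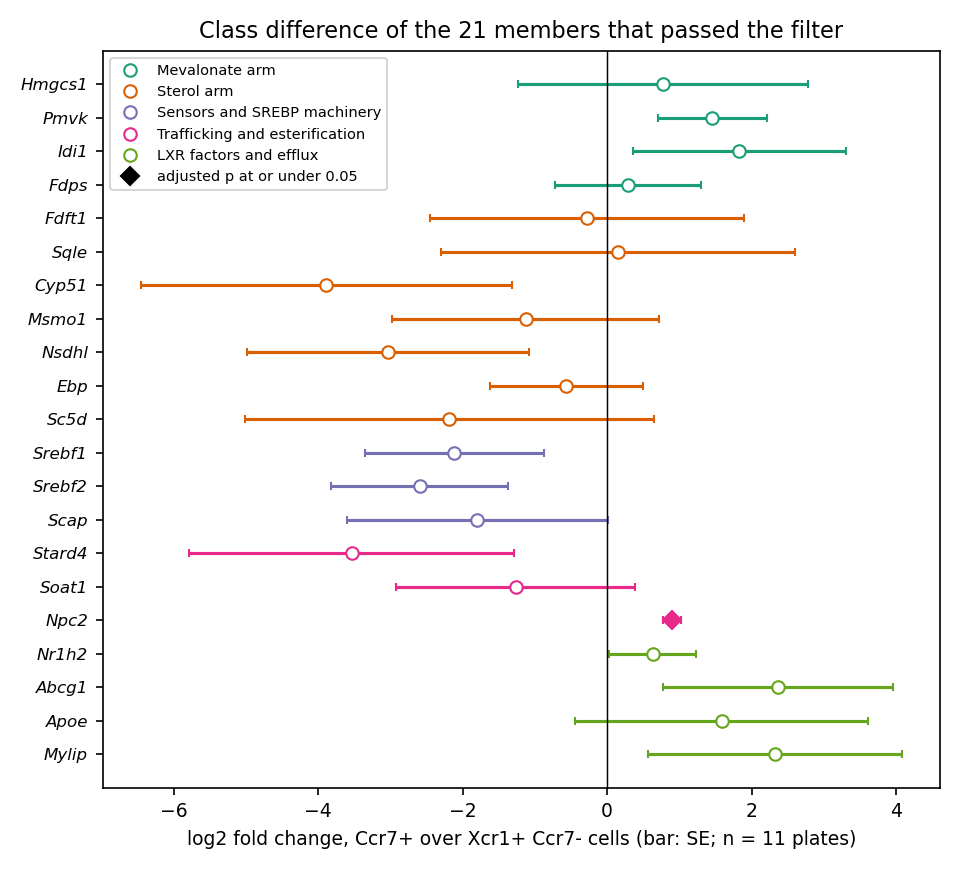
Log2 fold change of Ccr7+ over Xcr1+ Ccr7- cells (x axis; bars are SE, n = 11 plates) for the 21 genes that passed the filter on low counts (y axis, coloured by role). Npc2, at 0.90 with the smallest error, is the filled diamond past the threshold; the sensors lie at or below -1.80 and the efflux genes above 0, with wide errors.

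Genes of neighbouring pathways gave 1 further call between the classes. In the list of other sterol-handling genes, Gramd1b, which encodes a protein that moves cholesterol from the plasma membrane to the endoplasmic reticulum, was called higher in Ccr7+ cells (1 of 13 tested), with means of 2.47 ± 6.02 CPM in Xcr1+ Ccr7- and 40.0 ± 36.9 CPM in Ccr7+ cells (SD, n = 11; edgeR, adjusted p = 0.0438); it was higher in 8 plates and lower in 2. The most abundant of that list did not pass: Plin2, a lipid droplet coat protein, had 489.6 ± 180.4 CPM and 223 ± 152 CPM (edgeR, adjusted p = 0.0824) and was lower in 10 of 11 plates, and Erlin1 195 ± 81.5 CPM and 282 ± 121 CPM. None of 5 tested genes of fatty acid synthesis passed, with Elovl5 at 177 ± 115 CPM and 187 ± 137 CPM and Acly, which makes the acetyl-CoA that feeds both lipid pathways, at 165 ± 136 CPM and 87.3 ± 59.1 CPM. None of 5 tested partners and other targets of the liver X receptors passed either, with Smpdl3a at 54.9 ± 57.7 CPM and 96.7 ± 121 CPM and the corepressor gene Ncor1 at 64.0 ± 60.2 CPM and 88.1 ± 62.8 CPM.

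Deletion of Irf1 came with no call among the 33 genes over all cells (0 of 33; 0% of the 16203 genes tested were called). None of the members had an unadjusted p under 0.05 in edgeR, against 1272 of all genes, and DESeq2 and limma on cells weighted equally called none. The fitted difference was above 0 for 21 and below 0 for 12 members. The median log2 fold change was 0.29 in the synthesis and uptake set and 0.38 in the efflux set, beside -0.00478 over all genes. Leaving out 1 plate at a time moved the first from 0.16 (without Irf1_FF replicate 4) to 0.58 (without Irf1_FF replicate 2), with 0.20 without Irf1_FF replicate 3. The second turned to -0.03 without Irf1_dXCR1 replicate 3 and to -0.02 without Irf1_FF replicate 3, and was 0.14, 0.22 and 0.10 without Irf1_dXCR1 replicate 1, Irf1_dXCR1 replicate 5 and Irf1_FF replicate 4. With cells weighted equally the medians were 0.09 and -0.16, so the direction of the efflux set was not stable. Summed fibroblast and endothelial markers ranged from 93.0 to 5559 CPM in Irf1 control plates and from 176 to 3541 CPM in Irf1-deleted plates. Their part in the all-cell values was not tested. Without cells holding macrophage, fibroblast, endothelial, T or NK markers the medians were 0.33 and 0.13, with no member called by edgeR. No member had plates without overlap, against 0.679% of all genes with every deleted plate above and 0.562% with every deleted plate below the controls.

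Npc2 measured 1717, 2093, 2270.2 and 2708 CPM in the Irf1 control plates and 2685, 1644, 2069, 2402 and 1790.3 CPM in the Irf1-deleted plates. The groups overlapped almost wholly, at 2197 ± 411 CPM (SD, n = 4) and 2118 ± 429 CPM (SD, n = 5; log2 fold change -0.05 ± 0.20, SE). Soat1 measured 132, 129, 4.99 and 156 CPM in the Irf1 control plates and 134, 89.6, 285, 135 and 162 CPM in the Irf1-deleted plates, again with overlap. Of the remaining trafficking genes, Stard4 had means of 42.2 ± 11.2 CPM and 35.7 ± 21 CPM and Npc1 of 13.9 ± 9.55 CPM and 13.3 ± 12.2 CPM.

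In the mevalonate arm, 6 of 7 genes pointed higher in the Irf1-deleted plates and Pmvk lower. Pmvk measured 127, 352, 220.1 and 208 CPM in the Irf1 control plates and 191, 17.4, 37.2, 183 and 145 CPM in the Irf1-deleted plates. The 2 lowest values were Irf1-deleted plates and the highest an Irf1 control plate, while the others overlapped (log2 fold change -0.98 ± 0.58, SE; edgeR, adjusted p = 0.572). Idi1 measured 6.81, 109, 65.3 and 44.8 CPM in the Irf1 control plates and 107, 65.9, 94.5, 79.9 and 87.0 CPM in the Irf1-deleted plates, a narrow upper range beside a wide control range (edgeR, adjusted p = 1). Mvd had means of 16.7 ± 29.3 CPM (SD, n = 4) and 64.2 ± 37.2 CPM (SD, n = 5), and Hmgcs1 of 20.9 ± 10.8 CPM and 43.7 ± 40.0 CPM. Acat2, Fdps and Mvk stayed below 21 CPM in both group means.

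In the sterol arm, 8 of 11 genes pointed higher. Ebp measured 228, 141, 162 and 137 CPM in the Irf1 control plates and 112, 348, 225, 122 and 159 CPM in the Irf1-deleted plates. Msmo1 measured 27.3, 123, 109 and 50.5 CPM in the Irf1 control plates and 112, 78.1, 68.4, 100.4 and 139.9 CPM in the Irf1-deleted plates. The groups overlapped in both genes. Cyp51 had means of 58.2 ± 33 CPM and 79.7 ± 21.7 CPM, Fdft1 of 66.1 ± 47.3 CPM and 85.9 ± 22.3 CPM, and Nsdhl of 23.1 ± 25.5 CPM and 41.6 ± 27.1 CPM; each difference was smaller than its SE. Sc5d, Dhcr7 and Tm7sf2 were the 3 that pointed lower, and Sqle, Lss and Hsd17b7 pointed higher, all within 1 SE.

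Among the sensors, the groups overlapped in both of the most abundant genes. Srebf2 measured 40.0, 10.8, 86.6 and 49.6 CPM in the Irf1 control plates and 67.7, 121, 28, 84.3 and 36.7 CPM in the Irf1-deleted plates. Srebf1 measured 45.7, 0, 78.2 and 27.7 CPM in the Irf1 control plates and 24.3, 17.8, 104, 64.2 and 21.5 CPM in the Irf1-deleted plates. Scap, Insig1 and Insig2 had log2 fold changes of 0.26, -0.57 and -0.73, each smaller than its SE.

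Of the efflux genes, Nr1h2 and Apoe had lower means in the Irf1-deleted plates. Nr1h2 measured 179.7, 163, 144 and 233 CPM in the Irf1 control plates and 95.8, 88.3, 146, 148 and 126 CPM in the Irf1-deleted plates. The 3 lowest values were Irf1-deleted plates and the 3 highest Irf1 control plates (log2 fold change -0.57 ± 0.39, SE; edgeR, adjusted p = 0.741). Apoe measured 191, 385, 119 and 218 CPM in the Irf1 control plates and 323, 4.35, 285, 3.80 and 35.8 CPM in the Irf1-deleted plates, with 3 deleted plates below all controls and 2 inside the control range (edgeR, adjusted p = 1). Abcg1 pointed lower, and Mylip, Abca1 and Nr1h3 pointed higher, none past its threshold. The summed macrophage markers ranged from 257 to 2276 CPM in Irf1 control plates and from 194 to 2773 CPM in Irf1-deleted plates, with none of the 7 at 0 in either; their part in the Apoe values was not tested. A plate sum alone does not tell fewer cells of a type from less RNA per cell, and these were not parted by genotype.

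**Figure D4:**
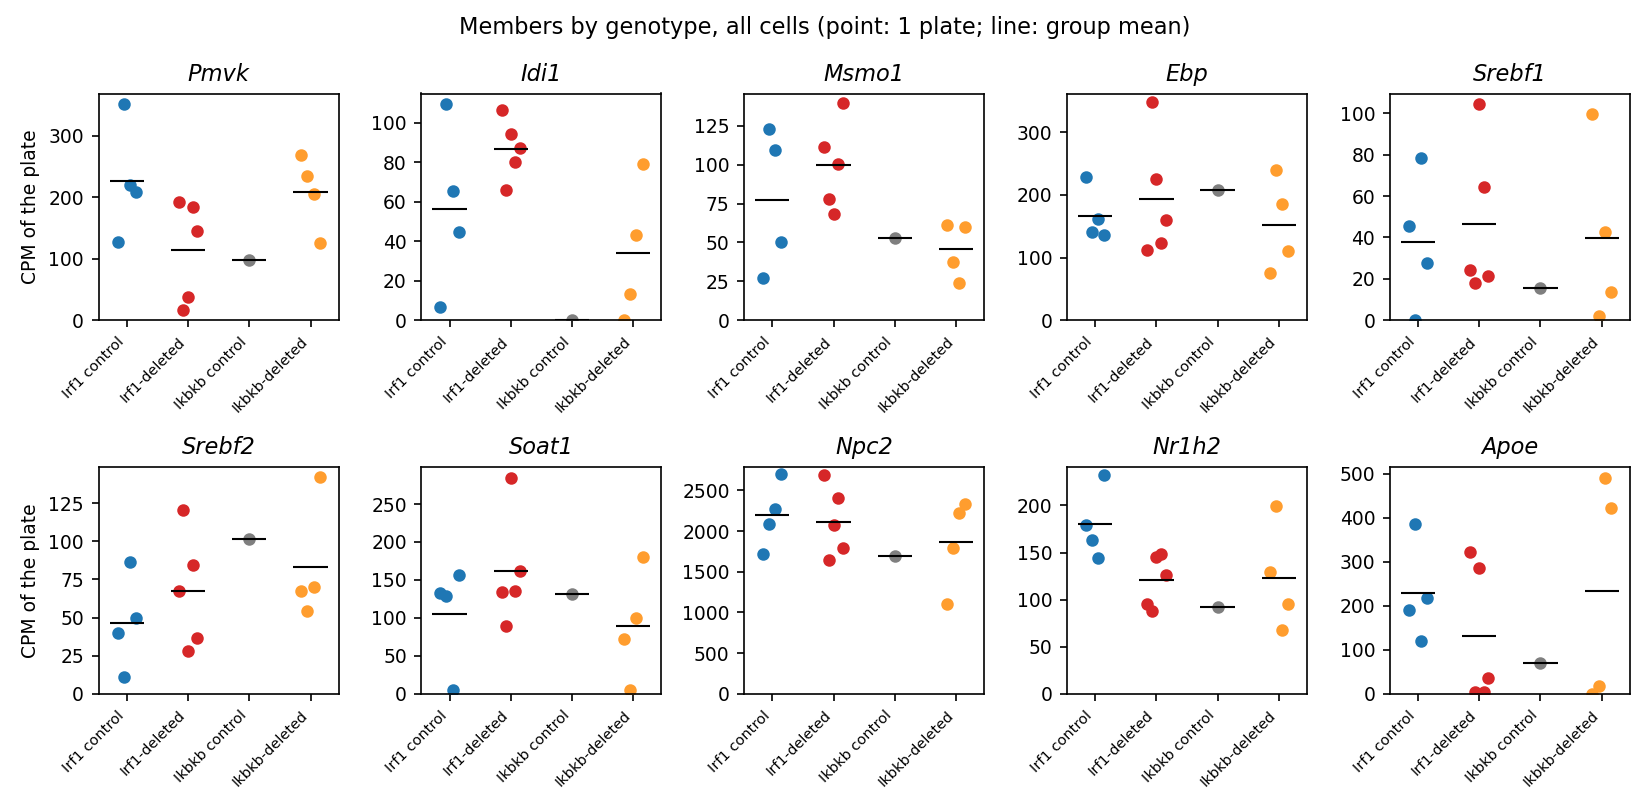
Level (CPM of the plate, y axes from 0) of the 2 most abundant genes of each role in the 4 genotypes (x axes), over all cells; each point is 1 plate and each line a group mean. The Irf1 control and Irf1-deleted points overlap in all 10 panels; the Nr1h2 control points lie mostly above the deleted ones.

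Within Xcr1+ Ccr7- cells, 4 Irf1 control plates were set against the 3 Irf1-deleted plates with at least 5 such cells. No member was called (0 of 33; 0% of 12047 genes), by edgeR or by any other tool, and 3 members had an unadjusted p under 0.05, against 500 of all genes. Of the 27 synthesis and uptake genes, 21 pointed higher in the deleted plates, including all 7 of the mevalonate arm, with a median log2 fold change of 0.84. With genes at 0 in 1 group set at the bound that 3 counts allow, that median was the same. Only 3 of the 27 genes were at the bound, so the median could hardly move. The fitted median was 0.44 without Irf1_dXCR1 replicate 1, 1.27 without Irf1_dXCR1 replicate 5, 0.48 with at least 3 cells and 0.20 with at least 10 cells per plate. The efflux set pointed higher in 2 of 6 (median -0.49), and the median over all genes was 0. The efflux median was -3.19, -0.77 and -0.77 without Irf1_dXCR1 replicate 5, Irf1_dXCR1 replicate 4 and Irf1_FF replicate 3, and turned to 0.03 and 0.04 without Irf1_dXCR1 replicate 1 and Irf1_FF replicate 1. It was -0.02 without marker cells and -0.99 with at least 3 cells per plate, so its direction was not stable. The mean log2(CPM + 1) per cell over the synthesis and uptake genes was 1.10 ± 0.27 (SD, n = 4) in control and 1.83 ± 0.59 (SD, n = 3) in deleted plates. Plates ranged from 0.743 to 1.31 in control and from 1.24 to 2.41 in deleted, so the groups overlapped.

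Acat2 was the one member whose plates did not overlap in Xcr1+ Ccr7- cells, with 0.310, 0, 0 and 7.10 CPM in control and 125, 13.4 and 21.9 CPM in deleted plates. The means were 1.85 ± 3.50 CPM (SD, n = 4) and 53.4 ± 62.1 CPM (SD, n = 3), with an edgeR adjusted p of 0.728. Of all 12047 genes tested, 2.22% had every deleted plate above every control plate and 1.28% below, a share near that of the members. Srebf2 measured 69.7, 34.4, 109 and 84.9 CPM in the control and 217, 143 and 40.9 CPM in the deleted plates. Msmo1 measured 35.6, 135, 263 and 31.2 CPM and 152, 206 and 166 CPM. Both ranges overlapped. Sqle and Fdft1 had means of 22.3 ± 32.9 CPM and 21.6 ± 29.9 CPM in control and 137 ± 161 CPM and 104 ± 82.9 CPM in deleted plates, with SDs as large as the differences. Mvk, Lss and Abca1 were at 0 in all 49 control cells, which allows a share of up to 6.12% of cells with a UMI, and Dhcr7 and Nr1h3 in all 36 deleted cells, which allows up to 8.33%. The summed fibroblast and endothelial markers had a median of 52.9 CPM in control and 267 CPM in deleted plates, the macrophage markers 142 and 104 CPM and the cycling markers 1045 and 394 CPM, and their part in these values was not tested. Npc2 stood at 1934, 1175, 1548 and 2339 CPM in control and 1146, 2435 and 1671 CPM in deleted plates, with overlap (log2 fold change 0.00 ± 0.28, SE).

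Within Ccr7+ cells, 4 Irf1 control plates were set against 5 Irf1-deleted plates, again with no call (0 of 33; 0% of 11784 genes; 1 member and 1409 of all genes with an unadjusted p under 0.05 in edgeR, and no member called by another tool). Nr1h2 measured 186, 296, 238 and 489.7 CPM in the control plates and 128, 0, 81.6, 123 and 108 CPM in the deleted plates. In the same order these plates held 6, 15, 13 and 15 Ccr7+ cells in control and 15, 8, 7, 19 and 18 in deleted. All 4 control plates lay above all 5 deleted plates; it was the one member of 33 without overlap, beside 0.501% of all 11784 genes tested with every deleted plate below and 0.382% above. The means were 303 ± 133 CPM (SD, n = 4) and 88.0 ± 52.4 CPM (SD, n = 5), and the difference did not pass (log2 fold change -1.78 ± 1.15, SE; edgeR, adjusted p = 0.498). A test of the class difference between the genotypes gave Nr1h2 -0.47 ± 2.03 on the log2 scale (SE, edgeR, adjusted p = 1). Only the 4 control and 3 deleted plates with at least 5 cells of each class entered it. That left out the deleted plates at 0 and 81.6 CPM. Over those plates, the Nr1h2 difference in Ccr7+ cells was not shown to differ from that in Xcr1+ Ccr7- cells.

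Pmvk in Ccr7+ cells measured 169, 1042, 304 and 580.0 CPM in control and 196, 0, 0, 279.7 and 266 CPM in deleted plates. The highest 3 were controls (log2 fold change -1.82 ± 1.04, SE, edgeR, adjusted p = 0.404), and the 2 values of 0 came from plates with 8 and 7 Ccr7+ cells. Npc2 measured 2146, 2942, 2979.9 and 5574 CPM and 3353, 1991, 2190.4, 3116 and 1937 CPM, with overlap (log2 fold change -0.44 ± 0.24, SE; edgeR, adjusted p = 0.387). Srebf2 stood the other way, at 3.86, 0, 92.0 and 6.58 CPM in control and 74.8, 92.1, 93.8, 75.9 and 68.0 CPM in deleted plates: 3 control plates lay near 0 and 1 inside the deleted range (edgeR, adjusted p = 1). Idi1 measured 0, 182, 144 and 128 CPM and 243, 67.8, 238, 174 and 211 CPM, and Soat1 0.772, 81.4, 9.29 and 269 CPM and 0, 442, 316, 161 and 241 CPM, both with overlap. Abca1 was at 0 in these cells of both genotypes, and Acat2, Tm7sf2, Dhcr7, Npc1 and Nr1h3 in all 49 control cells.

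In Ccr7+ cells the summed immature cDC1 markers did not overlap between the Irf1 genotypes, while the summed macrophage markers did. The sums were not tested. Of 7 tested immature cDC1 markers, edgeR called none and gave none an unadjusted p under 0.05. Of 7 tested macrophage markers it called none, and 3 had an unadjusted p under 0.05. The summed immature cDC1 markers ranged from 2872 to 4072 CPM in control and from 1423 to 2261 CPM in deleted plates, and the summed macrophage markers from 0.834 to 152 CPM (4 of 7 at 0) and from 0 to 1445 CPM (1 of 7 at 0). Their part in the values of Nr1h2, Pmvk and Npc2 was not tested. Without cells holding macrophage, fibroblast, endothelial, T or NK markers the Nr1h2 difference was -2.07 ± 1.39 on the log2 scale (SE; edgeR, adjusted p = 0.547). Tested directly over 3 Irf1-deleted and 4 Irf1 control plates, the class difference between the genotypes gave no call for any member (0 of 33, 0% of 13506 genes). No member had an unadjusted p under 0.05 in edgeR, against 91 of all genes.

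**Figure D5:**
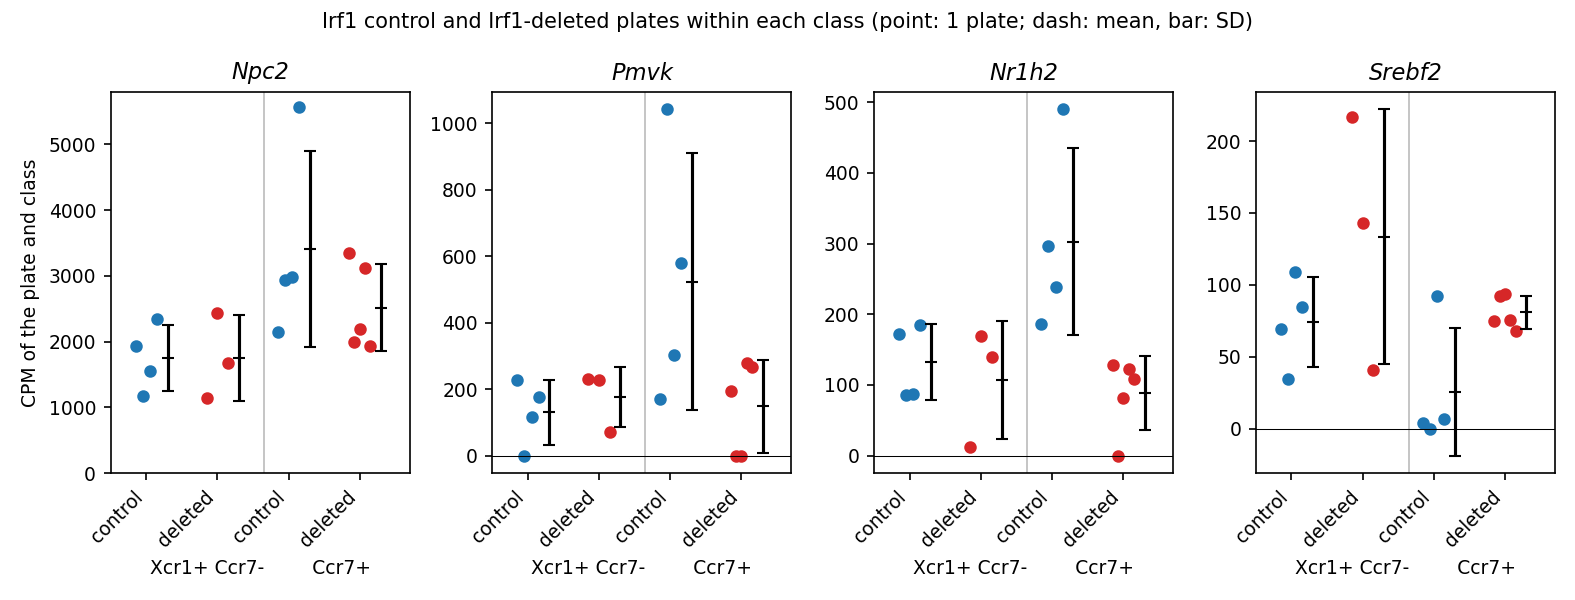
Npc2, Pmvk, Nr1h2 and Srebf2 (CPM of the plate and class, y axes) in Irf1 control and Irf1-deleted plates within Xcr1+ Ccr7- and Ccr7+ cells (x axes); points are plates, dashes and bars the mean and SD. The Nr1h2 control plates in Ccr7+ cells all lie above the deleted ones, 303 against 88.0 CPM on average, while the other groups overlap.

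Deletion of Ikbkb could be set only against 1 control plate, assumed to vary like the other groups. No member was called (0 of 33; 0% of 16203 genes; 5 members and 707 of all genes with an unadjusted p under 0.05 in edgeR). DESeq2 differed from edgeR in its calls of Hsd17b7, Idi1, Mvd, Mylip and Stard4, and limma on cells weighted equally did not. Hsd17b7, Idi1, Mvd and Mylip were at 0 in the 1 control plate. The DESeq2 calls are therefore not read as a result for these members. Npc2 measured 1696 CPM in the Ikbkb control plate and 1108, 1793, 2223 and 2337 CPM in the Ikbkb-deleted plates. Nr1h2 measured 92.3 CPM in the Ikbkb control plate and 129, 199, 68.2 and 95.7 CPM in the Ikbkb-deleted plates. Both control values lay inside the deleted range.

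Stard4 measured 60.3 CPM in the Ikbkb control plate and 0 to 1.08 CPM in the deleted plates, the lowest unadjusted p among the members (edgeR, adjusted p = 0.573). Pmvk measured 97.9 CPM in the Ikbkb control plate and 268, 234, 206 and 126 CPM in the Ikbkb-deleted plates. All 4 lay above the control, and those of Stard4 lay below it. The share of all genes with every deleted plate on 1 side of the single control plate was not measured, so neither pattern is read as a result. Idi1 measured 0 CPM in the Ikbkb control plate and 0, 13.5, 43.2 and 79.2 CPM in the Ikbkb-deleted plates. Ebp measured 208 CPM in the Ikbkb control plate and 75.3, 239, 185 and 109.8 CPM in the Ikbkb-deleted plates. Msmo1 measured 52.9 CPM in the Ikbkb control plate and 61.1, 37.6, 23.6 and 60.1 CPM in the Ikbkb-deleted plates. The control lay above 3 of the 4 deleted plates for Ebp and above 2 for Msmo1. Mvd, Idi1, Acat2, Tm7sf2, Hsd17b7, Insig1, Abca1 and Mylip were at 0 in all 34 control cells, which allows a share of up to 8.82% of cells with a UMI, and Dhcr7 in all 133 deleted cells, which allows up to 2.26%.

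Among the sensors, Srebf2 measured 102 CPM in the Ikbkb control plate and 67.3, 54.3, 69.8 and 142 CPM in the Ikbkb-deleted plates, and Srebf1 15.5 CPM in the Ikbkb control plate and 99.8, 2.06, 42.8 and 13.4 CPM in the Ikbkb-deleted plates. Soat1 measured 132 CPM in the Ikbkb control plate and 71.8, 5.29, 99.8 and 181 CPM in the Ikbkb-deleted plates. Apoe measured 69.7 CPM in the Ikbkb control plate and 0, 16.7, 491 and 423 CPM in the Ikbkb-deleted plates: the 2 low deleted plates were of 8 weeks, the age of the control, and the 2 high ones of 6 weeks. Macrophage markers, summed over 7 genes, stood at 90.8 CPM in the control plate, where 3 of the 7 were at 0, and at 50.9 to 1945 CPM in the deleted plates, where none was; their part in the Apoe values was not tested. The synthesis and uptake set pointed higher in 14 and lower in 13 of 27, and the efflux set higher in 5 of 6, with medians of 0.03 and 1.49 on the log2 scale when genes at 0 in 1 group were set at the bound of 3 counts, beside 0 over all genes. With the 8-week plates alone no member was called and the medians of fitted values were -0.05 and 0.42. Of the fitted medians, 0.14 and 1.49, the first ran from 0 to 0.33 without Ikbkb_dXCR1 replicate 4 and replicate 1 and was 0.07 without replicate 3. Against all 5 control plates together the medians were -0.34 and 0.02, and with cells weighted equally -0.03 and 0.32. Of those 5 control plates 4 are of the Irf1 line and its experiment, so line and experiment enter that comparison.

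The other lists gave no call between the genotypes. Over all cells none of the 13 genes of fatty acid synthesis and desaturation, the 22 sterol-handling genes or the 12 partners and other targets of the liver X receptors was called in the Irf1 or the Ikbkb comparison. In the Irf1 comparison 10 of 13 fatty acid genes pointed higher (median 0.43), 12 of 22 sterol-handling genes (median 0.05) and 2 of 12 liver X receptor genes (median -0.35). Elovl5 and Acly had means of 178 ± 31.1 CPM and 103 ± 80.1 CPM in Irf1 control plates (SD, n = 4) and 106 ± 50.4 CPM and 139 ± 39.3 CPM in Irf1-deleted plates (SD, n = 5). Plin2 had 305 ± 50.2 CPM and 393 ± 110.4 CPM, and Erlin1 165 ± 56.7 CPM and 159 ± 40.9 CPM. Smpdl3a had 109.8 ± 52.2 CPM and 67.9 ± 55.6 CPM, and Ncor1 83.1 ± 45.4 CPM and 63.8 ± 42.8 CPM.

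Some member counts are uncertain because of gene overlap or near copies. The annotated spans of 9 members overlap another gene of the table, among them Cyp51 with Akap9, Fdft1 with Ctsb, Npc1 with Rmc1 and Srebf1 with Rai1, all on opposite strands, and Tm7sf2 with Vps51 on the same strand. Srebf2 holds Mir33 within its span. Nr1h2 has an annotated pseudogene, and Acat2 a near copy in Acat3; how reads shared with them were counted is not given in the sources used here.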

How the data were processed

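Single cells were index-sorted and their 5′ transcript ends counted by UMI. The authors deposited whole-number UMI counts per gene and cell; per the submitters' processing notes, bcl2fastq, STAR 2.5.3a, HTSeq 0.9.1 and GRCm38 were used. The deposited cell annotation gave plate, age, mitochondrial and spike-in fraction, and arcsinh-transformed XCR1 and MHCII staining; fractions and staining entered no test. Counts were summed per plate, or per plate and class with at least 5 cells; genes passing filterByExpr were scaled by TMM and tested with edgeR 4.0.16 (quasi-likelihood; R 4.3.3), with Benjamini-Hochberg adjustment over all genes tested and a threshold of 0.05. Ccr7 and Xcr1, which define the classes, were not tested. Intervals and limits for counts of 0 cover counting error only. The p-values measure the spread between plates, which nothing in the labels ties to separate mice.

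Samples were grouped by genotype label; replicate numbers follow accession order and pair nothing. Values of each plate are given for members that passed in any of 6 fits and for the 2 most abundant of each role; other pathway lists are represented by members that passed or the 2 most abundant. Genes with values in addition were chosen after their values were seen. The members and lists were chosen with earlier results of these data known. DESeq2 1.42.0, limma 3.58.1 on cells weighted equally, other scaling, filters, cell minimums, thinning, marker-cell removal and leaving out each plate were tried as alternatives. The fits were tested on simulated data. Some pathway genes are not reported here.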

Additional observations from a re-analysis of the deposited data

How the results depend on the processing

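In the class comparison of 21 members, edgeR called 1, DESeq2 4 (Npc2, Cyp51, Srebf2 and Stard4) and limma on cells weighted equally 3 (Npc2, Cyp51 and Srebf2). Of all 5559 genes tested, the tools called 216, 1243 and 1887 in the same order. With at least 10 cells per plate and class (4 plates), and with control plates only (5 plates), edgeR called 0 members; fewer plates entered both fits. Leaving out each plate in turn left 1 member called, with a Npc2 log2 fold change from 0.82 to 0.95. In the Ikbkb comparison, with 1 control plate, DESeq2 called members that edgeR did not, and the cause was not tested. The other alternatives run left the counts of members called as they were. The set medians, which carry no test, were less stable. In the Irf1 comparison over all cells the efflux median of 0.38 turned negative without either of 2 plates, and in Xcr1+ Ccr7- cells that of -0.49 turned positive without either of 2. In Ccr7+ cells the synthesis and uptake median of 0.23 ran from -0.12 to 0.72 over the plates left out and was -0.17 without marker cells. For the class difference between Irf1 genotypes the same median was 0.27, ran from -1.74 to 1.02, and was -2.70 without marker cells; the efflux median was 0.12 and ran from -0.79 to 1.69. The cause was not tested. Chosen after seeing the data were the fits without cycling cells, without cells holding both Ccr7 and Xcr1, with the Irf1 lines alone (Npc2 0.90, adjusted p = 0.0308 by edgeR) and with correction for shared UMIs. A UMI was read in under 10% of cells for 19 members; the size of difference that could be detected in them was not measured. In the class comparison both classes of a plate were paired by the plate block. No paired analysis was possible because replicate numbers follow accession order and mark no shared animal or batch, which holds for the comparisons between genotypes.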
